A study of Phanerodontia chrysosporium with 18 samples.

Results

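The 7 gene models of the white-rot fungus Phanerochaete chrysosporium described here are annotated as, or share a domain with, enzymes that make, use or oxidize glyoxylate, and their transcripts were compared on wood between 96 h and 40 h of colonization. They are 7 of the 13602 models in the table, taken by their protein numbers: isocitrate lyase (3004959), malate synthase (3010822), 3 further models that carry the isocitrate lyase and phosphorylmutase domain (3006287, 2960428 and 3030826), glyoxylate reductase (2980010) and cytochrome b2 (3030467). Strain RP-78 was grown in both groups on thin tangential sections of white spruce (Picea glauca) sapwood, set in agar with nitrogen and mineral salts but no nutrient carbon, and was harvested 96 h or 40 h after inoculation. Each time had 3 libraries of poly-A RNA, each from a pool of 20 sections, and each library was run in 3 lanes, which were averaged and counted as 1. The values are RPKM, reads scaled to each model's length and each lane's total, so levels can be set against each other between genes. The comparison of the times bears on the onset of lignin oxidation, which the series title names. These are whole-culture RNA pools, in which fewer cells of a kind and less RNA per cell cannot be told apart.

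The glyoxylate cycle is a shortcut through the citrate cycle that skips the steps releasing carbon dioxide. Isocitrate lyase splits isocitrate into succinate and glyoxylate, and malate synthase joins the glyoxylate with acetyl-CoA to give malate, so that carbon from acetate or fatty acids can be built into sugars. In wood-decay fungi glyoxylate is also a neighbour of oxalate, the acid these fungi release into wood: it can be oxidized to oxalate, reduced to glycolate by glyoxylate reductase, or used by malate synthase. Cytochrome b2 is a flavin and heme enzyme that oxidizes lactate in the yeast Saccharomyces cerevisiae, and a flavin and heme enzyme of the brown-rot fungus Fomitopsis palustris oxidizes glyoxylate to oxalate. What the protein with number 3030467 oxidizes was not measured here.

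Summed RPKM was 779148 to 788009 in the 96 h libraries and 827199 to 838614 in the 40 h libraries. No read totals are given, but the steps between the lowest values gave relative depths of 0.48 to 0.709, on 41 models, for the 96 h libraries and 0.717 to 1 for the 40 h libraries, so a low value at 96 h rests on fewer reads. Library 2 of the 96 h group stood apart, with correlations across genes of 0.984 and 0.992 with its partners, against 0.995 between those.

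Of the 7 members, 2 were higher and 4 lower at 96 h, and 1 was not called (limma on log2(RPKM + 1), threshold of 0.05 on the adjusted p). Over all 11725 tested models 26.3% were called higher, 35.6% lower and 62.0% in either direction, and a count of 6 called members of 7 is to be read against that last share. The libraries of the 2 times did not overlap for 5 members, as for 69.3% of all tested models. All 7 members passed the filter of at least 1 RPKM in at least 3 libraries, but 2960428 passed only through its 40 h libraries, so it had to differ, and the count of 6 supports nothing by itself. All 11725 models together had a median of -0.08 on the log2 scale. These shares and this median are for RPKM without further scaling. With trimmed mean scaling of the libraries 3712 models were higher and 3748 lower, with a median of -0.009.

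**Figure D1:**
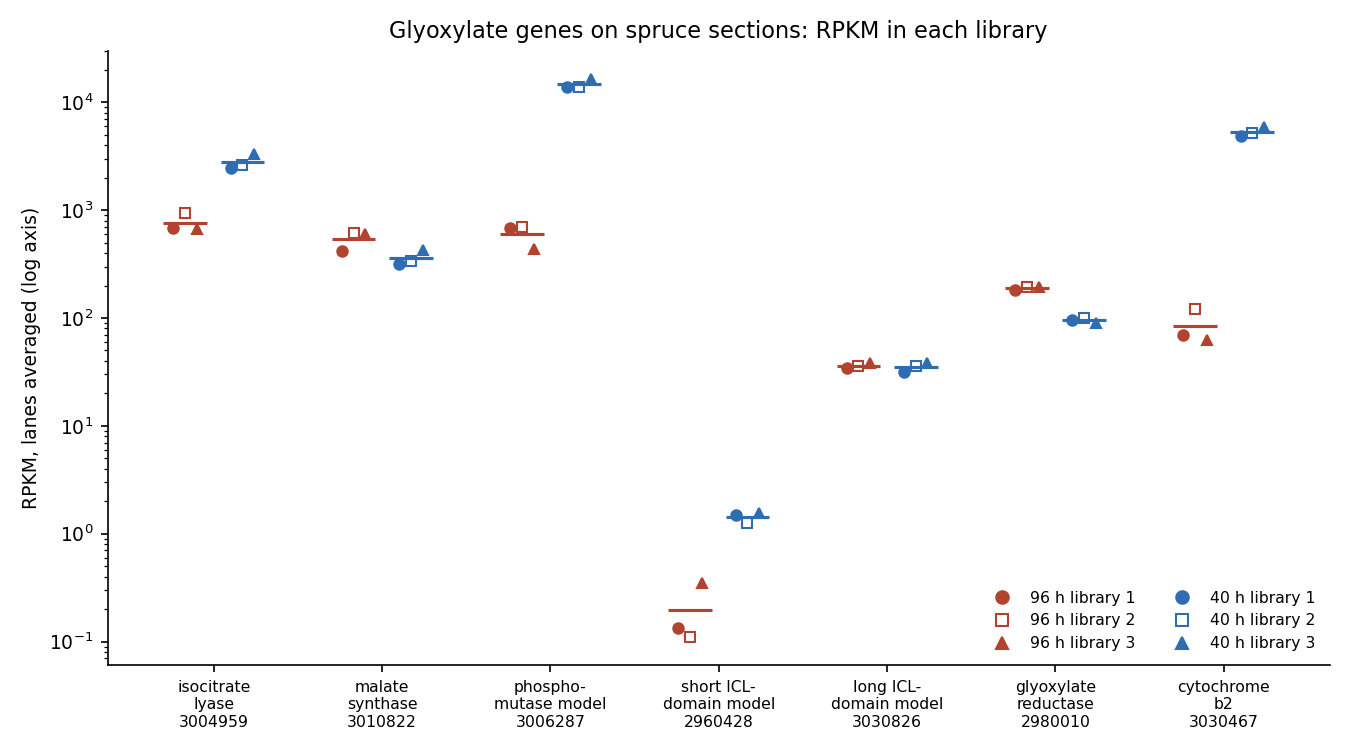
RPKM (log axis) of the 7 members in each library, with 96 h libraries in red left of 40 h libraries in blue; symbols mark libraries 1 to 3 and bars the mean of 3. Cytochrome b2 averaged 84.2 RPKM at 96 h and 5305 RPKM at 40 h, while the long ICL-domain model averaged 36.2 RPKM at 96 h and 35.4 RPKM at 40 h.

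Isocitrate lyase and malate synthase, the pair of enzymes that define the cycle, moved in opposite directions, though the call for malate synthase rests on single libraries, as given with its values. Isocitrate lyase (3004959) had 686, 938 and 673 RPKM in 96 h libraries 1, 2 and 3, against 2448, 2635 and 3326 RPKM in 40 h libraries 1, 2 and 3. Every 96 h library lay below every 40 h library, and library 2 was the highest of the 96 h group. The mean was 766 ± 150 RPKM at 96 h and 2803 ± 462 RPKM at 40 h (SD, n = 3 each), a 3.66-fold fall with a log2 fold change of -1.88 (SE 0.17, limma adjusted p = 4.38e-05). Without 96 h library 2 the log2 fold change was -2.03. The model kept a high place at both times, with rank 116 of 13602 by mean RPKM at 96 h and rank 17 at 40 h. Lanes of a library differed by at most 1.23% of their mean for this gene, so the spread between libraries is far larger than that between lanes.

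Malate synthase (3010822) had 421, 610.4 and 603 RPKM in 96 h libraries 1, 2 and 3, against 315, 341 and 429 RPKM in 40 h libraries 1, 2 and 3. The groups overlapped, since 96 h library 1 lay below 40 h library 3. The mean was 545 ± 107 RPKM at 96 h and 361 ± 59.6 RPKM at 40 h, a log2 fold change of 0.58 (SE 0.17, 95% confidence interval 0.18 to 0.98, limma adjusted p = 0.0195). This call was lost when 96 h library 3 (adjusted p = 0.0716), 40 h library 1 (0.0748) or 40 h library 2 (0.0684) was left out. The direction was higher at 96 h in each of these fits, and over all alternatives its adjusted p was 0.00247 to 0.0748.

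The ratio of isocitrate lyase to malate synthase within a library is free of differences in scaling between libraries. It was 1.63, 1.54 and 1.12 in 96 h libraries 1, 2 and 3, against 7.78, 7.73 and 7.76 in 40 h libraries 1, 2 and 3. The 40 h libraries were close to each other in this ratio although both genes were higher in 40 h library 3 than in 40 h library 1. The ratio fell in all 3 libraries of the 96 h group below any of the 40 h group, and its mean log2 was 0.49 ± 0.29 at 96 h and 2.96 ± 0.005 at 40 h (SD, n = 3 each). The exact two-sided permutation test gave p = 0.1, the smallest value that 3 against 3 libraries allow, and 0.125 after Benjamini-Hochberg adjustment over the 5 ratios computed.

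The other 3 models share the isocitrate lyase and phosphorylmutase domain. This family holds isocitrate lyase and also enzymes with other substrates, such as methylisocitrate lyase and phosphoenolpyruvate mutase, so the domain alone does not give the reaction. In the deposited annotation the domain match of isocitrate lyase (3004959) spans residues 12 to 535 and that of 3030826 residues 44 to 571, lengths of 524 and 528 residues. The matches of 3006287 (residues 137 to 221) and 2960428 (residues 87 to 171) are 85 residues long each. The sources used here do not say how the authors assigned reads that related models share.

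Model 3006287, curated as carboxyphosphonoenolpyruvate phosphonomutase, an enzyme known from antibiotic synthesis in Streptomyces, was the most abundant of the 7 at 40 h. It had 688, 697 and 433 RPKM in 96 h libraries 1, 2 and 3, against 13987, 13892 and 16530 RPKM in 40 h libraries 1, 2 and 3. All 96 h libraries lay far below all 40 h libraries, with library 3 the lowest at 96 h and library 3 the highest at 40 h. The mean was 606 ± 150 RPKM at 96 h and 14803 ± 1496 RPKM at 40 h, a 24.4-fold fall with a log2 fold change of -4.64 (SE 0.20, limma adjusted p = 9.3e-07). By mean RPKM it ranked 168 of 13602 at 96 h and 3 at 40 h, and its fall ranked 17 among 11725 tested models. Its part of all RPKM was 0.0772% ± 0.0188 in 96 h libraries and 1.78% ± 0.18 in 40 h libraries. Relative to isocitrate lyase it stood at 1.00, 0.743 and 0.643 in 96 h libraries 1, 2 and 3, against 5.71, 5.27 and 4.97 in 40 h libraries 1, 2 and 3. That ratio changed by -2.76 on the log2 scale, so in these libraries 3006287 fell further than isocitrate lyase. The exact permutation test gave p = 0.1 (adjusted 0.125) and cannot go below 0.1 with 3 against 3 libraries.

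Model 3030826, with the long domain match and no curated function, was not called. It had 34.6, 35.9 and 38.2 RPKM in 96 h libraries 1, 2 and 3, against 31.7, 36.0 and 38.4 RPKM in 40 h libraries 1, 2 and 3. The groups overlapped almost completely. The log2 fold change was 0.04, with a 95% confidence interval from -0.16 to 0.23 (limma adjusted p = 0.7255). Relative to isocitrate lyase its level changed by 1.91 on the log2 scale (exact permutation p = 0.1, adjusted 0.125).

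Model 2960428, with the short match and no curated function, was barely detected. Its libraries had 0.134, 0.109 and 0.346 RPKM at 96 h, against 1.48, 1.27 and 1.56 RPKM at 40 h. Single lanes at 96 h lay between 0.002 RPKM, the value the table gives for no reads, and 0.424 RPKM, and lanes of 96 h library 2 differed by 245% of their mean. Every 40 h library lay above the filter of 1 RPKM and every 96 h library below it, so the filter fixed the separation and its p is not given as a result. The log2 fold change was -1.03 with a pseudocount of 1, -2.45 with 0.1 and -0.31 with 5, so its size is set by the pseudocount. The ratio of the linear means, 96 h over 40 h, was 0.137, while the authors' deposited table gives 0.0732 from averages of 0.104 and 1.42 RPKM. The authors' averages lay within 0.1% of the geometric mean of the 9 lanes for 95.4% of models at 96 h and 96.0% at 40 h, and a geometric mean weighs a lane without reads heavily. Its ratio to isocitrate lyase changed by -1.18 on the log2 scale with an exact permutation p of 0.3.

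**Figure D2:**
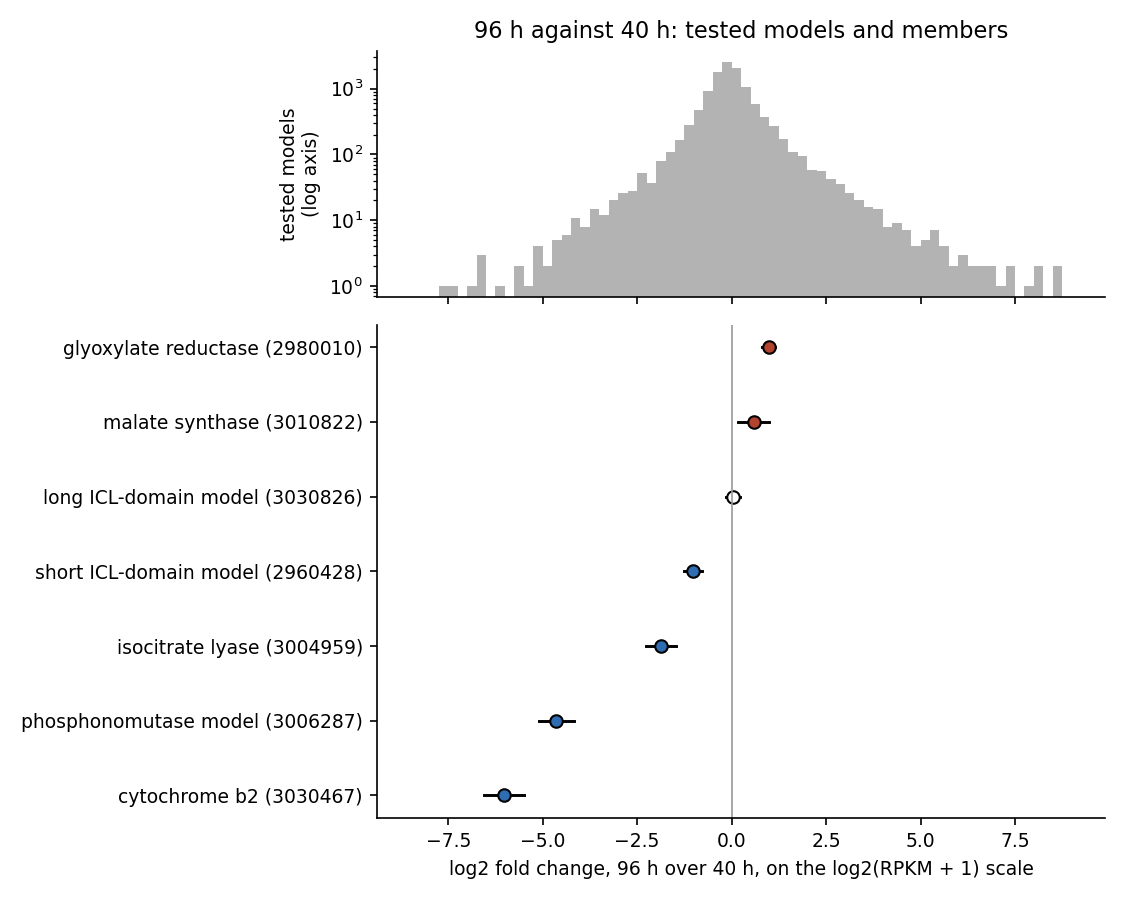
Top, number of tested models (log axis) by log2 fold change, 96 h over 40 h, on the log2(RPKM + 1) scale; bottom, the 7 members with 95% confidence intervals, red for higher, blue for lower and white for not called; the call of 2960428 was fixed by the filter. The members run from -6.02 for cytochrome b2 to 0.98 for glyoxylate reductase.

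Glyoxylate reductase (2980010), which takes electrons from NADH or NADPH to turn glyoxylate into glycolate, was higher at 96 h, with little spread between libraries. It had 180.0, 195 and 194 RPKM in 96 h libraries 1, 2 and 3, against 96.7, 101 and 89.3 RPKM in 40 h libraries 1, 2 and 3. No libraries overlapped between the times, and 40 h library 3, the highest of its time for the other 6 members, was the lowest here. The mean was 190 ± 8.29 RPKM at 96 h and 95.5 ± 5.75 RPKM at 40 h, 1.99-fold higher, with a log2 fold change of 0.98 (SE 0.07, limma adjusted p = 1.56e-05). Its rise ranked 1002 among 11725 tested models.

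Cytochrome b2 (3030467) showed the largest change of the 7. It had 70.2, 120.2 and 62.1 RPKM in 96 h libraries 1, 2 and 3, against 4883, 5156 and 5878 RPKM in 40 h libraries 1, 2 and 3. The 96 h libraries were all far below the 40 h libraries, and 96 h library 2 was the highest of its time. The mean was 84.2 ± 31.5 RPKM at 96 h and 5305 ± 514 RPKM at 40 h, and the log2 fold change was -6.02 (SE 0.23, 95% confidence interval -6.55 to -5.49, limma adjusted p = 4.54e-07), and -6.30 without 96 h library 2. By mean RPKM the model ranked 1684 of 13602 at 96 h and 4 at 40 h. Its fall ranked 7 among 11725 tested models.

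The ratio of cytochrome b2 to glyoxylate reductase was 0.39, 0.617 and 0.32 in 96 h libraries 1, 2 and 3, against 50.5, 51.3 and 65.9 in 40 h libraries 1, 2 and 3. Cytochrome b2 was the less abundant of the pair in every 96 h library and the more abundant in every 40 h library. The mean log2 ratio was -1.23 ± 0.49 at 96 h and 5.79 ± 0.22 at 40 h, a change of -7.03 (exact permutation p = 0.1, adjusted 0.125).

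**Figure D3:**
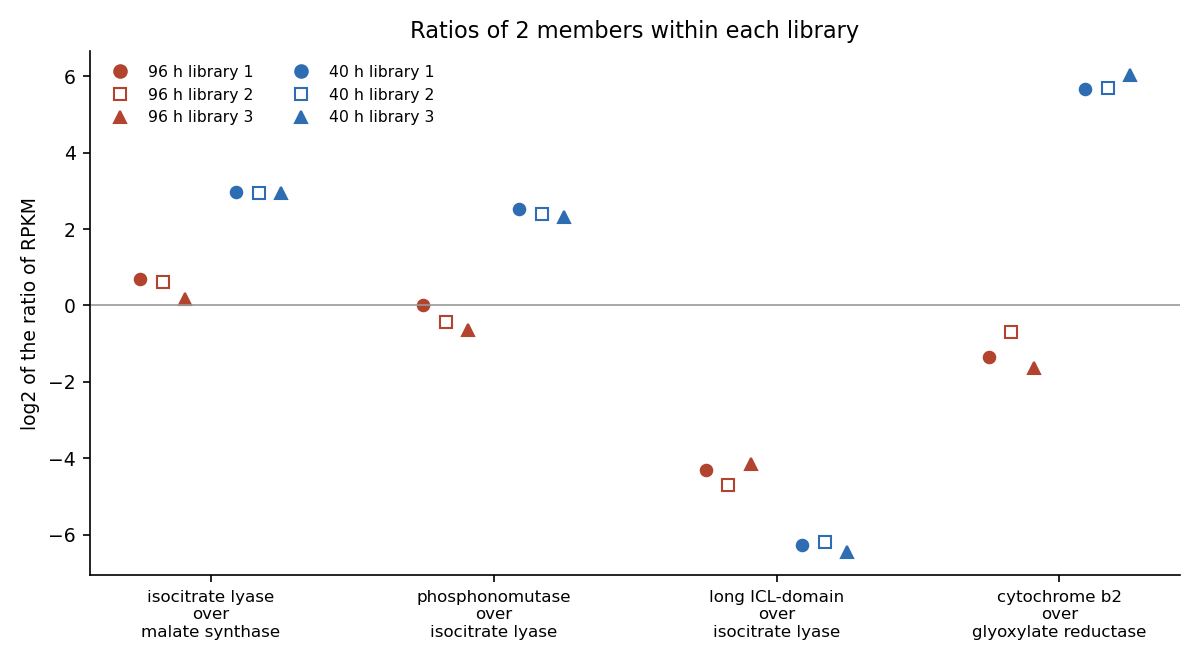
Log2 of the ratio of RPKM of 2 members within each library, 96 h libraries in red left of 40 h libraries in blue. Isocitrate lyase over malate synthase lies between 0.16 and 0.70 at 96 h and between 2.95 and 2.96 at 40 h; the ratio with the barely detected 2960428 is left out.

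The order of the members by level differed between the times. At 96 h isocitrate lyase was first by mean, followed by 3006287, malate synthase, glyoxylate reductase, cytochrome b2, 3030826 and 2960428. Among neighbours in this order, isocitrate lyase overlapped 3006287 and 3006287 overlapped malate synthase between libraries, and the others did not overlap. At 40 h the order was 3006287, cytochrome b2, isocitrate lyase, malate synthase, glyoxylate reductase, 3030826 and 2960428, and no neighbours overlapped.

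The 7 members summed to 0.264%, 0.33% and 0.257% of summed RPKM in 96 h libraries 1, 2 and 3, against 2.60%, 2.68% and 3.16% in 40 h libraries 1, 2 and 3. The groups did not overlap, with means of 0.284% ± 0.0405 in 96 h libraries and 2.81% ± 0.303 in 40 h libraries (p = 0.1 by exact permutation). Without 3006287 the share was still 0.207% ± 0.0329 at 96 h and 1.03% ± 0.126 at 40 h (exact p = 0.1). Of the members' own sum, 3006287 and cytochrome b2 made up 27.2% and 3.70% at 96 h, against 63.3% and 22.7% at 40 h. Isocitrate lyase made up 34.2% at 96 h and 11.9% at 40 h, and malate synthase 24.6% at 96 h and 1.54% at 40 h. Library 2 was the highest of the 96 h libraries for 5 of the 7 members, as for 55.8% of all tested models, and library 3 the highest of the 40 h libraries for 6 of the 7, as for 34.4% of tested models.

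Cytochrome b2 is 1 of 7 models with the FMN-dependent alpha-hydroxy acid dehydrogenase domain, a family that also holds glycolate oxidases. None of the other 6 was called lower: 4 were higher at 96 h and 2 were not called, and their log2 fold changes had a median of 0.71. Over all tested models 26.3% were higher and 35.6% lower. For 1 of the 4 the call was marginal (limma adjusted p = 0.0454) and its libraries overlapped between the times. Model 2906081 averaged 247 ± 39.0 RPKM at 96 h and 31.4 ± 3.85 RPKM at 40 h, a log2 fold change of 2.93 (limma adjusted p = 1.16e-06). Model 3012736, the most abundant of these 6, averaged 285 ± 29.4 RPKM at 96 h and 95.1 ± 3.73 RPKM at 40 h, a log2 fold change of 1.57. The 6 others summed to 668 ± 63.5 RPKM at 96 h and 220 ± 8.66 RPKM at 40 h. Cytochrome b2 therefore held 10.5%, 14.3% and 8.29% of the family's RPKM in 96 h libraries 1, 2 and 3, against 95.7%, 95.8% and 96.5% in 40 h libraries 1, 2 and 3 (exact permutation p = 0.1).

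In the domain family of isocitrate lyase the shares of the leading pair differed between the times. Model 3006287 held 42.8% ± 5.6 of the RPKM of the 4 models at 96 h and 84.0% ± 0.929 at 40 h. Isocitrate lyase held 54.5% ± 5.25 at 96 h and 15.8% ± 0.928 at 40 h, and exact permutation gave p = 0.1 for each. At 96 h isocitrate lyase led by mean, but 3006287 was level with it in library 1 (48.9% against 48.7%). Both were lower in RPKM at 96 h.

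Other genes around the pathway were taken from 16 lists of annotation patterns, which matched 67 models besides the members, 64 of them tested. Of these, 25 were higher and 28 lower at 96 h and 11 were not called, beside background shares of 26.3% higher and 35.6% lower over all tested models. Their log2 fold changes had a median of -0.10, beside -0.08 over all tested models. Counts in single lists, given next, cover few models and are to be read against the same shares. The list for transamination of glyoxylate matched no model.

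The enzymes that feed isocitrate to the members were mixed. Mitochondrial aconitase (3028433), which makes isocitrate from citrate, averaged 479 ± 87.4 RPKM at 96 h and 1611 ± 169 RPKM at 40 h, a log2 fold change of -1.76 (SE 0.14, limma adjusted p = 2.54e-05). Of the other 3 aconitase-domain models, 2 were higher and 1 was not called. Of 4 citrate synthase models, a pattern that includes an ATP-citrate enzyme, 2 were higher and 2 lower, with a log2 fold change of -1.05 for 2931976. Isocitrate dehydrogenases use the same substrate as isocitrate lyase, but the 5 models of that list carry only a joint annotation with isopropylmalate dehydrogenase, an enzyme of leucine synthesis, and could not be assigned. Of the 5, 2 were higher and 2 lower. Among them 2979145 averaged 379 ± 16.1 RPKM at 96 h and 248 ± 14.4 RPKM at 40 h, and 2975107 had a log2 fold change of -1.47.

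Downstream of succinate and malate, 4 of 6 models matched for succinate dehydrogenase and fumarase were lower and 1 was higher. The pattern also took in a model curated as flavoprotein monooxygenase (3008848), which was not called. The shares over all tested models were 35.6% lower and 26.3% higher. The model curated as fumarate reductase (123932) averaged 640 ± 71.5 RPKM at 96 h and 3329 ± 490 RPKM at 40 h, a log2 fold change of -2.37. The curated succinate dehydrogenase (3022756) and fumarate hydratase (3030968) changed less, with log2 fold changes of -0.77 and -0.47. The pattern for malate dehydrogenase matched 7 models, but 5 of them only through the word isopropylmalate. The other 2 were the curated malate dehydrogenase 2910636, not called with 1113 ± 77.0 RPKM at 96 h and 1282 ± 132 RPKM at 40 h, and 2966263, which fell by 0.82 on the log2 scale. The mitochondrial carrier for tri- and dicarboxylates (128101) averaged 78.5 ± 22.5 RPKM at 96 h and 592 ± 122 RPKM at 40 h, a log2 fold change of -2.91. It was 1 of 3 lower models among 5 tested in its list. That list also took in domain relatives such as a sulfite efflux pump (2906511, log2 fold change -5.10).

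Genes for the exit towards sugars were higher. Phosphoenolpyruvate carboxykinase (3031422), which turns oxaloacetate into phosphoenolpyruvate, averaged 1157 ± 190 RPKM at 96 h and 418 ± 101 RPKM at 40 h, a log2 fold change of 1.48 (limma adjusted p = 0.000294). The inositol phosphatase and fructose-1,6-bisphosphatase domain model 3007920 rose by 1.74 on the log2 scale. Of the acetate activation list, 2 models were tested and called higher. The model 3029054 is curated as acetyl-CoA synthetase-like and had 105 ± 5.57 RPKM at 96 h and 11.5 ± 2.83 RPKM at 40 h. Its annotation names a male sterility NAD-binding domain, where that of the others names an AMP-dependent synthetase domain. Whether it holds that domain too was not examined. The other, the acetyl-coenzyme A synthetase 3028417, lost its call (adjusted p = 0.0337) without 96 h library 3 or any 40 h library, with adjusted p from 0.000189 to 0.0896 over the alternatives.

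On the side of oxalate and one-carbon acids, 1 of 6 oxalate decarboxylases was higher and 3 were lower. Counts here stand beside 26.3% higher and 35.6% lower over all tested models. The decarboxylase 2907675 had a log2 fold change of 5.72 and 2969988 one of -3.97. The other lower decarboxylases were near the filter, with means of 1.64 and 2.14 RPKM at 96 h, against 3.42 and 3.43 RPKM at 40 h. Both formate dehydrogenases, which oxidize the formate that oxalate decarboxylases release, were higher, with 3031669 at 4492 ± 1072 RPKM at 96 h and 433 ± 70.0 RPKM at 40 h. Of 6 tested relatives of glyoxylate reductase, 5 were higher and 1 lower; 2 of the 5 are these formate dehydrogenases. Glyoxal oxidase (11068), a copper enzyme that oxidizes glyoxal to glyoxylate and makes hydrogen peroxide, rose by 7.44 on the log2 scale. The other model with its domain, 2894758, fell by 0.51 on the log2 scale at low levels, 3.77 RPKM at 96 h and 5.80 RPKM at 40 h. Methylcitrate dehydratase (2980934), of the parallel methylcitrate route, was not called, with 145 ± 4.801 RPKM at 96 h and 144 ± 9.35 RPKM at 40 h.

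Peroxisomes, the organelles in which glyoxylate cycle enzymes can reside, had 10 of 13 matched models lower and 2 higher at 96 h, beside 35.6% lower and 26.3% higher over all tested models, and their median was -0.47 on the log2 scale. The most abundant, a model with the PEX11 domain (2915162), averaged 234 ± 26.2 RPKM at 96 h and 653 ± 105 RPKM at 40 h, a log2 fold change of -1.47. The pattern also took in a pair of peroxisomal hydratases of fatty acid oxidation, of which 3004309, counted among the 10, fell by 1.02 on the log2 scale and 3086941 was not called.

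**Figure D4:**
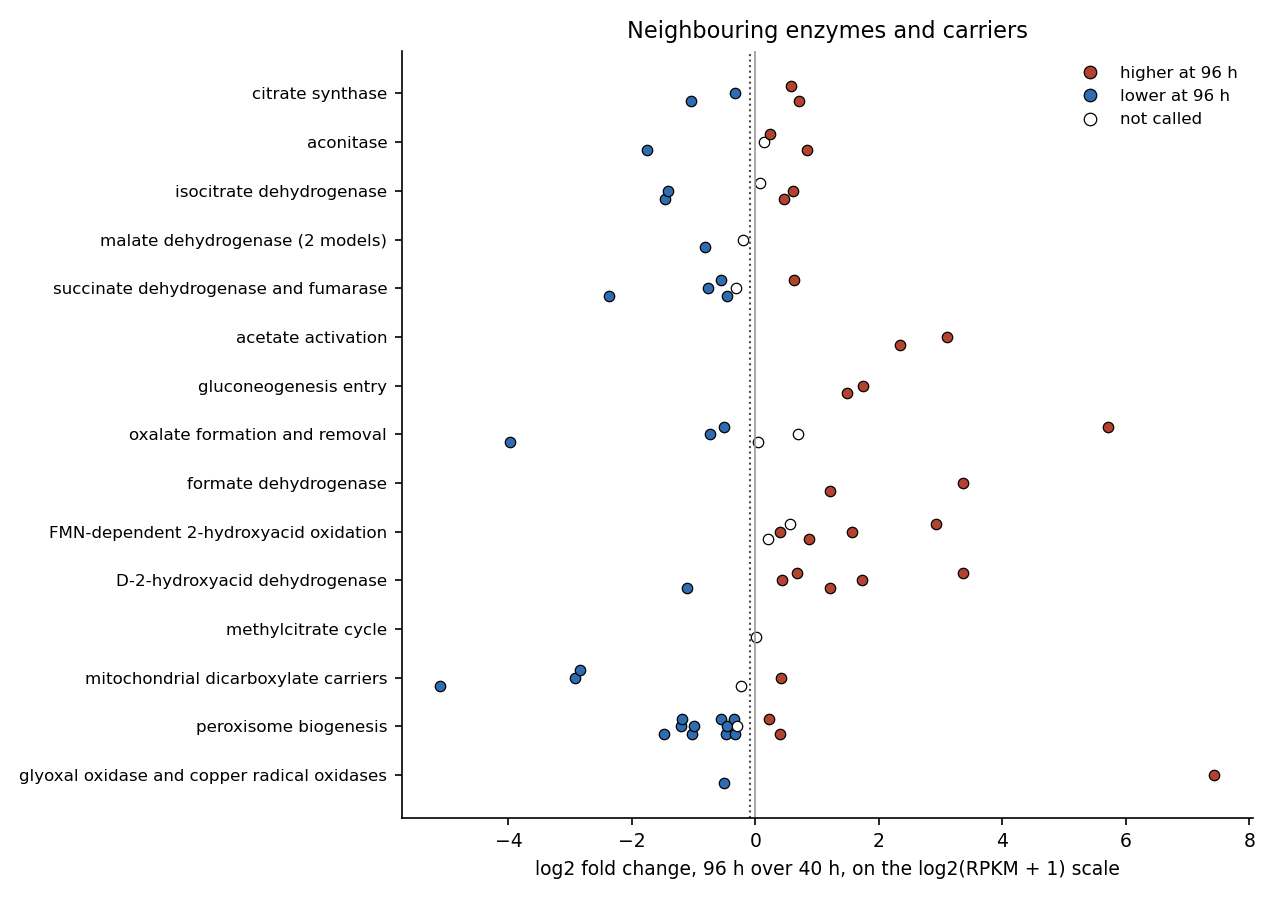
Log2 fold change, 96 h over 40 h, of the tested models of each list, red for higher, blue for lower and white for not called; the dotted line is the median of all tested models at -0.08, and malate dehydrogenase is shown without the isopropylmalate matches. Both models of the gluconeogenesis list lie at 1.48 and 1.74, while the peroxisome list has 10 of 13 models lower.

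Among all tested models with an annotation, those with the profile nearest to isocitrate lyase over the 6 libraries, by root mean square distance between centred log2(RPKM + 1) values, were a GMC oxidoreductase (3026582, distance 0.0698), mitochondrial aconitase (3028433, 0.0806) and a model with an ATPase-like domain (3011022, 0.0809). The aconitase had 439, 579.8 and 420 RPKM in 96 h libraries 1, 2 and 3, against 1452, 1591 and 1789 RPKM in 40 h libraries 1, 2 and 3. For it, as for isocitrate lyase and 55.8% of all tested models, library 2 was the highest of the 96 h group. Choosing models by nearness over these same libraries favours such a match, so it adds no support. Nearest to malate synthase were a retinaldehyde-binding domain model (2976847, 0.114), an ABC transporter (3029305, 0.12) and an AAA ATPase (2902764, 0.125). Nearest to cytochrome b2, at larger distances, were the aspartic peptidase Asp2 (2919778, 0.345), a sulfate permease (2965237, 0.364) and another family A1 peptidase (2915771, 0.383). The measure covers 6 libraries of 2 times, and a shared difference between the times brings profiles close.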

How the data were processed

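The deposited table holds RPKM made by the authors, 1 column per library and lane, with 0.002 where a lane has no reads, and per the file headers their average RPKM per time, the ratio of these averages and a p-value. CASAVA 1.8.2 is named in the submitters' processing notes; the sources used here give no aligner, counter or build. Lanes of a library (barcode number in the titles) were averaged on the linear scale, since they are repeat runs. The 11725 models reaching 1 RPKM in 3 or more of the 6 libraries were transformed to log2(RPKM + 1), without further scaling, and fitted over all genes with limma 3.58.1 in R 4.3.3 (with a variance trend and without a block). Benjamini-Hochberg adjustment covered all of them, with a threshold of 0.05. The fit was tested on simulated data. Shares and ratios were compared by exact permutation over libraries. Nothing states whether section pools came from separate cultures, so the tests reflect the spread among these 6 libraries, which may be technical. Fold changes on this scale understate those of low genes. Not every same-numbered pair of libraries deviated together, so no pairing was assumed. The members, lists and tests were chosen with earlier results of these data known. Named genes are the members, from each list the model of highest mean and the called model of largest change, and the 3 annotated models nearest to each of 3 members. Models 2894758, 2966263, 3028417, 3086941, 3004309, 3008848, 3022756 and 3030968 were added after their values were seen.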

Additional observations from a re-analysis of the deposited data

How the results depend on the processing

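The settings varied were pseudocount, low-value filter, scaling, variance trend, lanes, libraries left out and a replicate block. The authors' p-values were compared only through the number of members called. Of 132 refitted values of the 7 members under these settings, 129 kept their side of the threshold. The 129 include 18 values of 2960428, whose call was fixed by the filter and which add nothing to the count. The exceptions were the 3 fits in which malate synthase lost its call. No called member changed direction, which for 2960428 was set by the filter as well. The uncalled 3030826 did in some fits, for example with a log2 fold change of -0.0374 without 40 h library 1, against 0.0365. Of 588 values for 31 of the other named models 581 kept their side of the threshold. The exceptions were 4 for 3028417, given above, and 3 for the ABC transporter 3029305. The latter lost its call without 96 h library 3 (adjusted p = 0.0543), 40 h library 1 (0.0738) or 40 h library 2 (0.0612), in a range of 0.00255 to 0.0738. The uncalled 2980934 changed direction in some fits, for example with -0.0438 without 40 h library 1, against 0.01. Members called numbered 5 or 6 throughout, 5 where a filter of 5 RPKM dropped 2960428 or malate synthase lost its call. The authors' p-values, taken as deposited and without adjustment here, were below 0.05 for 6 members, among them the barely detected 2960428. The sources used here do not name the test behind them or say whether lanes were counted as replicates. That count comes from the same libraries and adds no independent support. Called models of the lists numbered 46 to 55, against 53. The difference in the members' share, -2.53 percentage points, was -3.06 with the 10 models of highest mean left out of the total only. The members' sum kept all 7 there, so that value is a ratio to the remaining RPKM and not a share of it. The log2 ratio of 2960428 to isocitrate lyase changed by -0.312 in lane 2 alone, against -1.18, and by -1.77 to -0.701 with a library left out (-0.701 without 96 h library 2, -1.77 without 96 h library 3); it was not run in lane 1, where a library had no reads. The malate dehydrogenase list had 5 models called, and 1 without the isopropylmalate matches, a change made after seeing the data. With a replicate block, 6 members were called by barcode number and 6 by sample number, and over all models 3013 and 2968 were higher and 4108 and 4056 lower, against 3088 and 4179. Scaling moved these counts more. Over all models 3712 were higher and 3748 lower with trimmed mean scaling, and 2988 higher and 4603 lower with upper quartile scaling. Same-numbered libraries correlated at 0.136, 0.133 and -0.102 by barcode and at -0.0971, 0.0757 and 0.218 by sample number, and not every library was closest to its own number. Low values such as 2960428 are limited by depth.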

Other observations

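Some models of the neighbouring lists varied widely among the 96 h libraries, and were picked out after their values were seen. The acetyl-coenzyme A synthetase 3028417 had 70.1, 4.05 and 19.8 RPKM in 96 h libraries 1, 2 and 3, against 2.62, 2.82 and 3.15 RPKM in 40 h libraries 1, 2 and 3 (limma adjusted p = 0.0337, lost without 96 h library 3 or any 40 h library). A second acetyl-coenzyme A synthetase, 3037083, which did not pass the filter, had 5.01, 0.376 and 4.55 RPKM at 96 h, against 0.563, 0.658 and 0.536 RPKM at 40 h. In both, 96 h library 2 was the lowest of its time. The FMN-domain model 3016579 had 4.22, 19.5 and 3.98 RPKM in 96 h libraries 1, 2 and 3, against 4.28, 4.50 and 4.68 RPKM in 40 h libraries 1, 2 and 3, so that only 96 h library 2 stood apart, and it was not called. The oxalate decarboxylase 2967599 had 3.27, 3.02 and 12.1 RPKM at 96 h, against 2.65, 2.77 and 2.82 RPKM at 40 h, and was not called.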
